A study of Bos taurus with 8 samples.

Results

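Cathelicidins, beta-defensins and BPI are antimicrobial proteins of bovine neutrophils, and their transcripts were followed here around calving. The genes were CATHL1 to CATHL6, DEFB7 and BPI, and every non-control probe whose RefSeq accession maps to one of them was taken. All 8 genes had a probe. CATHL1, CATHL6, DEFB7 and BPI had 2 each, CATHL2 had 3, and CATHL3, CATHL4 and CATHL5 had 1 each, which makes 14 of the 43653 non-control probes and 8 of the 12639 gene symbols on the array. The samples were neutrophils isolated from jugular blood of female Holstein Friesian cows in the weeks around calving, and the labels name no treatment. One group was bled 14 days before the expected calving date and the other 7 days after the actual date, with 4 single-colour Agilent arrays each. The study text names 3 cows and the labels tie no array to a cow, so at least 2 arrays of each time may come from 1 animal, and the p-values measure the spread between arrays. All arrays of the earlier time lay on slide 1 and all of the later time on slide 2, so time and slide cannot be told apart.

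Cathelicidins are stored as inactive proforms in the large granules of bovine neutrophils. Elastase cuts off the shared cathelin domain on release, and the freed peptides, which differ widely in sequence from one gene to the next, disrupt bacterial membranes. Beta-defensins are small cationic peptides held by disulfide bonds, and in cattle they form a large family that includes many neutrophil and epithelial members. BPI, the bactericidal/permeability-increasing protein, is a primary granule protein that binds bacterial lipopolysaccharide. Granule proteins are made mainly while the cell matures in the bone marrow, so mature blood neutrophils are known to carry little of many of these messages. In current gene order CATHL4, CATHL1, CATHL3 and CATHL2 lie side by side, CATHL6 and CATHL5 lie next to each other close by, BPI neighbours LBP, and DEFB7 lies between DEFB10 and DEFB1. No sequence of a probe was used here.

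Detection varied with the place of a spot on the array, and this touches every member. The control probe (+)E1A_r60_1 is printed on 32 spots of each array. It was well above background, the scanner software's own call of detection, on 11 to 16 of the 32 spots of 7 arrays and on 1 of 32 on the array of the later time's replicate 4. On those 7 arrays, none of the 8 control spots in the inner part of the array (rows 134 to 399 of 532, columns 21 to 65 of 85) was well above background, and their signals lay between -9.64 and 9.54, while the highest outer spot of the 6 brighter arrays read between 699.6 and 1459. The arrays were unequal as a whole as well. Between 2201 and 4486 probes (5.04% to 10.3%) were well above background on 6 arrays, against 761 on replicate 4 before calving and 387 on replicate 4 after calving. Comparisons were therefore made on all 8 arrays and on the 6 brighter ones, replicates 1 to 3 of each time.

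**Figure D1:**
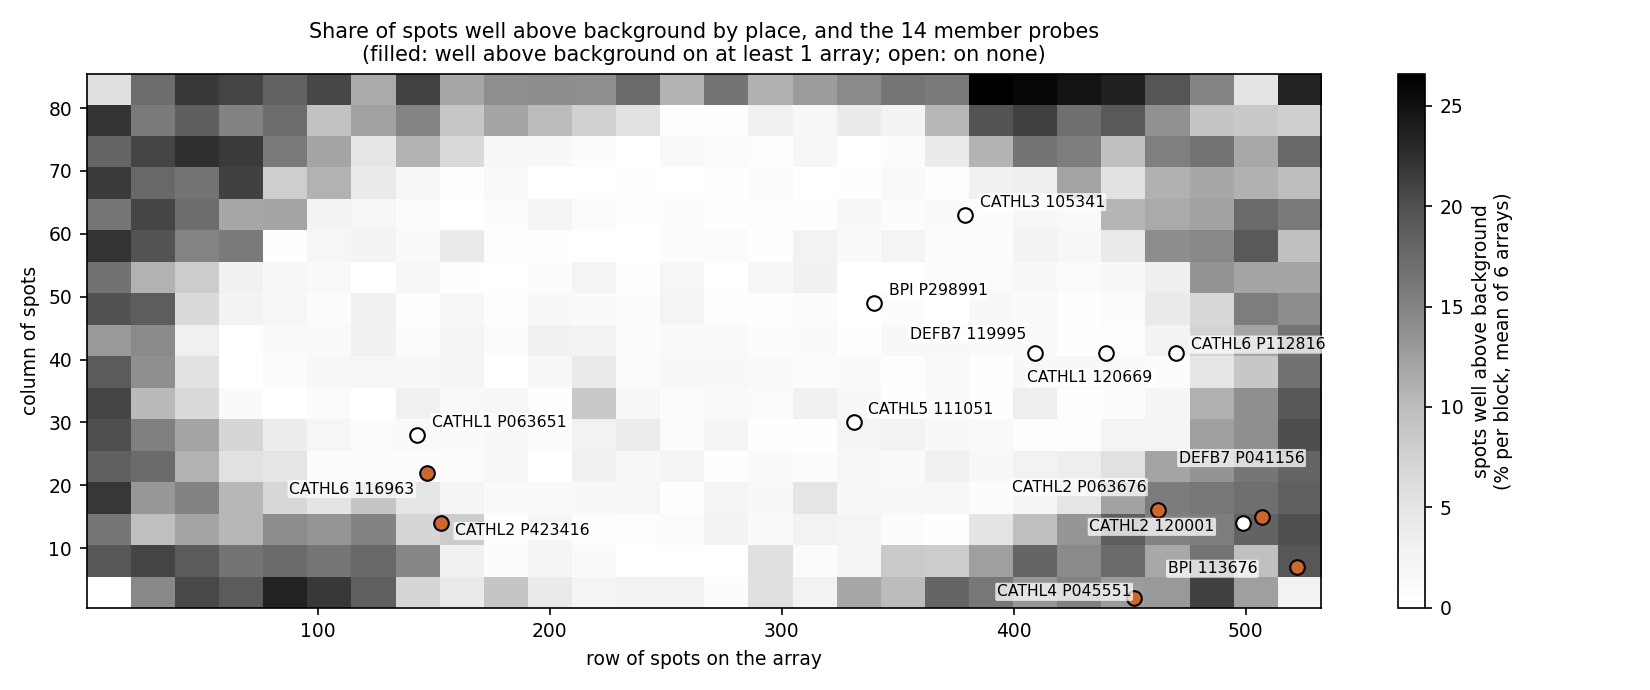
Share of spots well above background in blocks of the array (grey scale, percent per block, mean over the 6 brighter arrays), with row of spots on the horizontal and column on the vertical axis, and the place of the 14 probes. Filled circles mark the 6 probes well above background on at least 1 array and open circles the other 8. Of the filled circles, 4 lie together in the lit corner at rows 452 to 522, and 7 of the 8 open circles lie in the pale interior.

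The spots around each member probe, taken as all non-control spots within 20 rows and 6 columns, show how much of each member's region was detected. Averaged over the 6 brighter arrays, 12.6% to 16.5% of these spots were well above background for DEFB7 A_73_P041156, CATHL2 A_73_P063676, CATHL2 A_73_120001, CATHL4 A_73_P045551 and BPI A_73_113676. The median over all probes on the array was 3.54%. The share was 0.513% for BPI A_73_P298991, 0.734% and 1.23% for the CATHL1 probes, 0.792% for DEFB7 A_73_119995, 1.09% for CATHL3, 1.31% for CATHL5 and 3.14% for CATHL6 A_73_P112816. CATHL6 A_73_116963 and CATHL2 A_73_P423416 were a special case, because their surroundings were lit on 1 array. Around CATHL6 A_73_116963, 9.32% of spots were well above background on replicate 1 before calving and at most 0.76% on the other 5 brighter arrays. Around CATHL2 A_73_P423416 the share was 30.5% on that array and at most 2.11% on the other 5.

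Of the 14 probes, 6 were well above background on at least 1 array, and they belong to DEFB7, CATHL2, CATHL4, CATHL6 and BPI. CATHL1, CATHL3 and CATHL5 were well above background on none, and 16 of the 112 single values were well above background in all. Of all probes, 15.9% were well above background on at least 1 of the 6 brighter arrays. For CATHL1, CATHL3 and CATHL5 the signals give no level at either time, and few spots of any gene were detected around them. The signals below are the software's background-subtracted values, in arbitrary linear units, in the order of replicates 1 to 4. The lowest such signal called well above background lay between 16.8 and 27.2, depending on the array, and signals of different probes are not compared.

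DEFB7, a neutrophil beta-defensin, was the only member detected at both times by one probe. Its probe A_73_P041156 (NM_001102362) read 333, 281, 567 and 6.97 before calving and 541, 1145, 680 and 3.42 after calving. It was well above background on the 6 brighter arrays and on neither of the dim replicate 4 arrays, where 1.15% and 0.384% of the spots around it were well above background. As read, the times overlapped, since 567 before calving exceeded 541 after calving. After division by each array's 75th percentile, taken over 1091 probes that were detected on all 6 arrays, the log2 level was -0.71, -0.28 and -0.36 before calving and 0.99, 1.65 and 1.15 after. On that scale the times did not overlap, which held for 109 of those 1091 probes (9.99%) with the later time higher.

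The mean log2 level of DEFB7 was -0.45 ± 0.23 (SD, n = 3) before and 1.26 ± 0.34 (SD, n = 3) after calving. The difference was 1.71 on the log2 scale (SE 0.23), with a limma adjusted p of 0.0253 over 2225 probes. By that test 112 of the 2225 probes (5.03%) were called in either direction, and 41 (1.84%) were higher after calving. The median difference of all 2225 was -0.05. The exact two-sided permutation test over the 6 arrays gave p = 0.1, the smallest value that 3 against 3 can give. Leaving out any 1 array ended the call, with adjusted p between 0.0510 and 0.0885 and differences between 1.52 and 1.85. So did scaling over all probes (limma adjusted p = 0.179), normexp background correction (0.195), the processed signal (0.215), the series matrix (0.958), testing without a filter (0.377) and the replicate number as a block (0.115).

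DEFB7 was also higher after calving relative to nearby spots. On later replicates 1 and 3, however, these spots were themselves dimmer than on every brighter earlier array. The 95th percentile of the spots around A_73_P041156 was 109, 80.5 and 206 before calving and 36.8, 87.1 and 62.9 after. Part of the difference on this scale therefore comes from the surroundings. Relative to the 95th percentile of the spots around it, A_73_P041156 stood at 1.61, 1.80 and 1.46 on the log2 scale before calving and at 3.88, 3.72 and 3.43 after calving. The means were 1.62 ± 0.17 (SD, n = 3) and 3.68 ± 0.23 (SD, n = 3). All 3 later arrays were above all 3 earlier ones, with less spread within each time than under 1 factor per array. The share of all probes with that order on this scale was not counted, so the order is a description only. The difference on this scale was 2.05 (SE 0.21; limma adjusted p = 0.00454). That scaling called 227 probes (10.2%), 128 of them (5.75%) higher after calving, against the 41 of 112 under 1 factor per array, and it was chosen after seeing the data. Without any scaling the mean log2 signals of the 6 arrays were 8.55 before and 9.55 after, a ratio of 1.996.

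The second DEFB7 probe, A_73_119995, was well above background on no array. It read 1.03, -4.89, 1.91 and 0.879 before calving and -1.42, 1.67, 0.627 and 6.36 after. All of these lie under the detection range, and at most 1.52% of the spots around it were well above background on any of the 6 brighter arrays. The probes of this gene therefore disagree in detection, and each lay in a different region of the array. Bovine beta-defensin genes are similar in sequence, and whether A_73_P041156 also binds other family members was not tested.

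**Figure D2:**
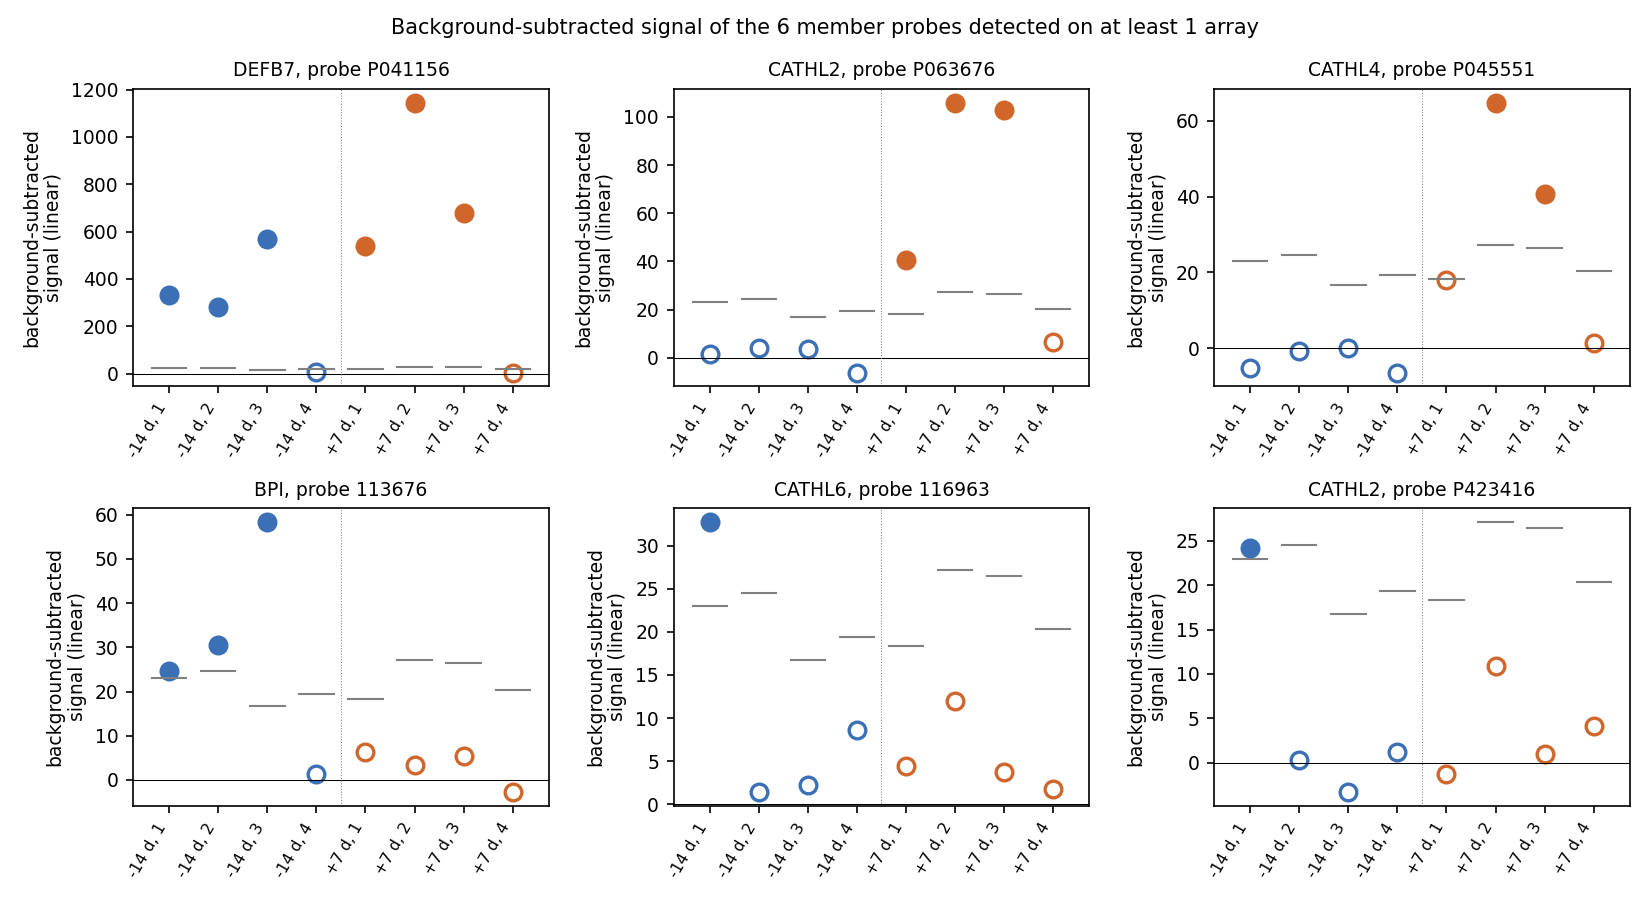
Background-subtracted signal (linear, arbitrary units, own scale in each panel) of the 6 probes detected on at least 1 array, by array; blue is 14 days before and orange 7 days after calving. Filled points are well above background, and grey bars mark the lowest signal called so on that array; CATHL2 A_73_P063676 is filled on 3 later arrays and no earlier one, and BPI A_73_113676 on 3 earlier arrays and no later one.

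CATHL2, which encodes bactenecin 5, a proline- and arginine-rich peptide, gave the clearest cathelicidin signal. Probe A_73_P063676 (NM_174826) read 1.50, 4.06, 3.75 and -6.24 before calving and 40.7, 106, 103 and 6.52 after calving. It was well above background on the first 3 arrays of the later time and on none of the earlier time. All 4 later signals exceeded all 4 earlier ones, the dim replicate 4 arrays included. Among all 43519 probes with a value on 8 arrays, 637 (1.46%) had that order. Of the 6936 probes well above background on at least 1 of the 6 brighter arrays, 21 (0.303%) were so on 3 of 3 later and 0 of 3 earlier arrays.

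Since the probe was under detection on every earlier array, its change has only a lower bound. The bound compares the mean of the later arrays with the lowest detectable signal, or the probe's own signal where higher, on each earlier array. CATHL2 was at least 5.93-fold higher after calving with 1 scaling factor per array, at least 3.61-fold without scaling, and 3.31-fold relative to the spots around it. On that last scale the earlier values were -2.58, 0 and -3.30 (log2), and the later levels -0.32, -0.39 and 0.003. The 95th percentile around the probe on replicate 2 before calving was 19.8. This was under that array's lowest detectable signal of 24.5, which took its place, so 0 and 3.31 are not strict bounds. Against replicate 2 before calving no rise shows there, and the limma adjusted p on that scale was 0.205. The surroundings of the spot were lit on replicates 1 and 3 before calving (14.9% and 24.7% of spots well above background) but on replicate 2 before calving only 3.83% were. In the limma fit, with dim values raised to a common floor, the difference was 1.50 (SE 0.33), from -3.54, the floor, on all 3 earlier arrays to -2.03 ± 0.62 (SD, n = 3). Its limma adjusted p was 0.0746, above the threshold of 0.05, so CATHL2 was not called. The probe passed the filter only through the later arrays, so its p-values are a description and lend no support. The exact permutation test gave 0.1, the smallest possible.

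Leaving out the dimmest later array, replicate 1, brought the limma adjusted p for CATHL2 to 0.0234 with a difference of 1.85. Without any other single array of the 6 it stayed uncalled, with limma adjusted p between 0.135 and 0.222. All these p-values share the limit of the filter given above and lend no support. Raising each array to its own lowest detectable signal gave 2.57 (adjusted p = 0.0280), and over all alternatives the limma adjusted p ran from 0.0161 to 0.377. The other CATHL2 probes did not add a measured level after calving. A_73_120001 lay in the same lit corner and was well above background on no array. It read -2.17, 7.47, -1.03 and 2.13 before calving and 8.10, 14.5, 17.3 and 3.14 after. None of these values was detected, so no direction can be drawn from them.

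The third CATHL2 probe, A_73_P423416, read 24.2, 0.271, -3.33 and 1.22 before calving and -1.35, 10.9, 0.954 and 4.07 after. The value of 24.2 on replicate 1 before calving was its only one well above background, a pattern shared by 1062 of 6936 probes (15.3%). That array was also the only one on which the region around this probe was lit. Taken by probe, CATHL2 was detected on 3 later arrays by one spot and on 1 earlier array by another, and these spots lay 309 rows apart.

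CATHL4 encodes indolicidin, a short tryptophan-rich peptide. Probe A_73_P045551 (NM_174827) read -5.26, -0.747, 0.057 and -6.54 before calving and 17.9, 64.9, 40.6 and 1.42 after calving. Replicates 2 and 3 after calving were well above background and no other array was. All 4 later signals again exceeded all 4 earlier ones. At least 2 of 3 later and 0 of 3 earlier arrays were detected for 53 of 6936 probes (0.764%).

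Unlike CATHL2, the CATHL4 spot had lit surroundings on all 3 brighter arrays before calving, where 14.5%, 12.96% and 24.7% of the spots around it were well above background, against 5.25%, 10.2% and 8.02% after calving. The probe was detected on none of these 3 earlier arrays and on 2 of the 3 later ones. CATHL4 was at least 2.81-fold higher after calving with 1 factor per array, at least 1.71-fold without scaling and at least 4.24-fold relative to the spots around it. These values take replicate 1 after calving at its own signal of 17.9. That signal was itself not well above background, so they are not strict lower bounds. It did not pass the filter of the limma fit, which asks for detection on all arrays of 1 time, and so has no adjusted p. With the common floor the exact permutation test gave p = 0.4 for a difference of 0.55. CATHL2 A_73_P063676 and CATHL4 A_73_P045551 were the only ones of the 14 with all 4 later signals above all 4 earlier ones. Of all 43519 probes with a value on 8 arrays, 637 (1.46%) had that order, and of 6901 detected probes 15 (0.217%) did. It rests in part on replicate 4 after calving, where CATHL2 read 6.52 and CATHL4 1.42. Both were under that array's lowest detected signal of 20.4.

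**Figure D3:**
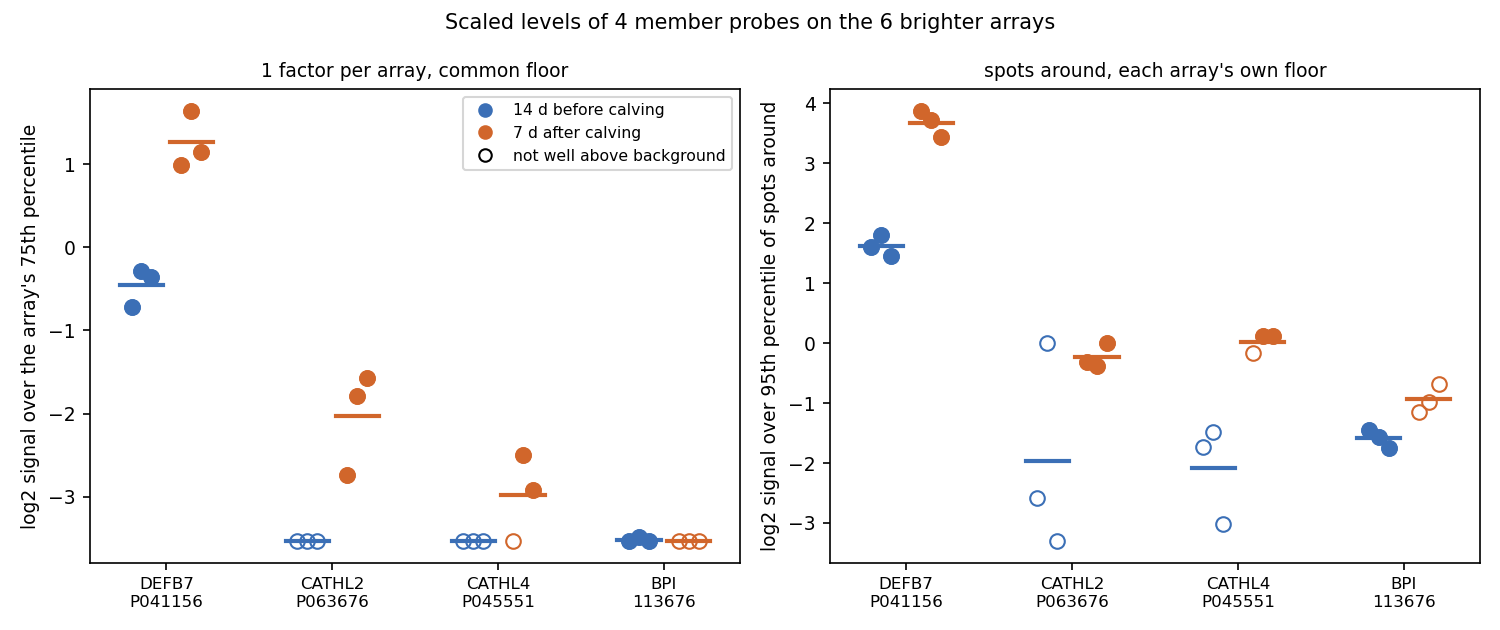
Log2 levels of 4 probes on the 6 brighter arrays, scaled by 1 factor per array with a common floor (left) or by the spots around each probe with each array's own floor (right); points are arrays, short lines are means of 3, and open points are not well above background. DEFB7 is separate between times in both panels, and the open CATHL2, CATHL4 and BPI points, as well as BPI points at the common floor on the left, are upper bounds. The open CATHL2 point at 0 on the right is an exception. There the array's lowest detectable signal stood for both the probe and the spots around it.

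BPI ran the other way in detection. Probe A_73_113676 (NM_173895) read 24.6, 30.6, 58.4 and 1.36 before calving and 6.37, 3.46, 5.38 and -2.75 after calving. It was well above background on the first 3 earlier arrays and on no later one. Replicates 1 to 3 before calving were above every later array, while replicate 4 before calving, at 1.36, lay below 3 of the 4 later values. Detection on 3 of 3 earlier and 0 of 3 later arrays was found for 273 of 6936 probes (3.94%).

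The size of the BPI difference could not be measured. The earlier signals were close to the detection limit of the later arrays, and the bound computed as for the cathelicidins was below 1 after scaling, so no fold is given on that scale. Without scaling the bound was 1.49. The limma fit, in which all but 1 of the 6 values stood at the floor, gave a difference of -0.02 (SE 0.10; adjusted p = 0.953). The spots around the BPI probe were themselves brighter before calving, with a 95th percentile of 67.5, 90.7 and 196 against 40.8, 53.5 and 42.3 after calving. The other BPI probe, A_73_P298991, read 7.09, 5.43, 0.794 and 6.09 before calving and 1.56, -4.64, 7.40 and -0.183 after, and no array was well above background in its dark region.

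CATHL6 encodes an alpha-helical cathelicidin known as BMAP-27. Probe A_73_116963 (NM_174832) read 32.8, 1.41, 2.23 and 8.57 before calving and 4.40, 12.02, 3.77 and 1.72 after. Only the value of 32.8 on replicate 1 before calving was well above background, which is again the array on which the region was lit. The other CATHL6 probe, A_73_P112816, read -0.577, -6.70, 2.38 and -2.71 before calving and -0.159, -2.84, -2.20 and 1.58 after. Neither probe allows a comparison of the times.

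CATHL1 encodes bactenecin 1, a cyclic dodecapeptide, CATHL3 encodes bactenecin 7, and CATHL5 encodes BMAP-28. CATHL1 A_73_120669 (NM_174825) read -4.46, -8.02, 3.62 and -6.50 before calving and -1.34, -5.25, -1.49 and 2.49 after. CATHL1 A_73_P063651 read -1.62, -5.74, -0.479 and 3.68 before and 3.83, 9.02, 0.855 and 6.93 after. Both spots were dark at both times, and no direction can be drawn from them. The CATHL3 probe A_73_105341 (NM_174001) read 3.81, -4.96, -6.64 and -4.97 before and -4.35, -1.55, -10.3 and -1.73 after. The CATHL5 probe A_73_111051 (NM_174510) read 0.329, 2.93, -0.915 and -0.150 before and -6.47, 6.66, -1.92 and 3.38 after. None of these 32 values reached the detection range, and 0.0% to 2.27% of the spots around these probes were well above background on the 6 brighter arrays.

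The processed signal, the software's final value, gives the same picture except on 1 array. On the other 7 arrays it equalled the background-subtracted signal for 36 of the 98 member values, within 0.1 percent, and for the other 62 it was the array's lowest value, a substitute for a dim spot. On replicate 3 before calving a surface correction had been applied. There the processed signal of the 14 probes ran from 1.101 to 244, although 5 of them had a negative background-subtracted signal. CATHL5 was processed to 244 from -0.915, BPI A_73_P298991 to 240 from 0.794, DEFB7 A_73_P041156 to 169 from 567 and BPI A_73_113676 to 20.1 from 58.4. The processed signals of DEFB7 A_73_P041156 were 333, 281, 169 and 6.97 before and 541, 1145, 680 and 4.08 after calving.

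With all 8 arrays and the processed signal, no member probe passed the filter, and limma called 0 of 475 probes, 7 of which had an unadjusted p under 0.05. DEFB7 A_73_P041156 then averaged -2.58 ± 1.83 (SD, n = 4) before and -0.76 ± 2.28 (SD, n = 4) after calving on the scaled log2 scale. The 3 lowest values were -4.05 and -4.10 on the dim arrays and -4.14 on replicate 3 before calving. On background-subtracted signal with a common floor, the exact permutation test over all 8 arrays gave p = 0.314, with both dim arrays at the floor.

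Other granule protein genes were read from lists. Of the list of secondary and gelatinase granule proteins, 13 of 17 genes had a probe and 8 probes passed the filter. Of these, 6 were higher after calving by limma on the 6 arrays and 1 was lower, beside 41 (1.84%) higher and 71 lower of all 2225 probes. The 6 belonged to haptoglobin (HP, difference 3.53, adjusted p = 0.00219), lactoferrin (LTF, 3.37 and 1.83), PGLYRP1 (2.43), MMP9 (2.14) and the vitamin B12 carrier TCN1 (1.68), and B2M was lower by -1.95. CHI3L1 gave -0.67 (adjusted p = 0.305). The median of the 8 was 1.98, beside -0.05 over all 2225 probes. All 6 passed the filter through the later arrays and stood at the floor on average before calving, so these differences and the median depend on the floor and on the filter. Bovine cathelicidins are held in large granules distinct from these.

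Of the primary granule list, 7 of 11 genes had a probe and 3 probes were tested, and none was called. BPI is one of them. LYZ, lysozyme, differed by -0.35 (adjusted p = 0.328) and CD63 by -0.30 (adjusted p = 0.863). Elastase, ELANE, which cuts procathelicidins, was well above background on 1 array, replicate 3 before calving, at 69.8. MPO and CTSC were well above background on none.

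Of the other cathelicidin and beta-defensin genes on the list, 5 of 21 had a probe, and none passed the filter. DEFB4A read -0.173, -2.37 and 2.78 on the brighter arrays before and 13.2, 28.8 and 80.6 after calving, and was well above background on 2 later arrays and no earlier one. DEFB10, the neighbour of DEFB7, read 18.2, -3.16 and -3.20 before and 14.7, 16.5 and 40.5 after, with 1 later array well above background. EBD, an enteric beta-defensin, read 17.9, 19.8 and 43.6 before and 8.68, 35.4 and 59.4 after, and its times overlapped. CAMP and TAP were detected on none of the 6 arrays. No BPI and LBP family gene was tested (2 of 13 genes with a probe were detected on any of the 6 arrays, and LBP was not).

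Of the genes of lipopolysaccharide recognition, the process that BPI opposes, 4 probes were tested and 1, CASP4, was lower after calving (-1.58, adjusted p = 0.0146). MYD88 (-0.92, adjusted p = 0.629) and AOAH (-0.48, adjusted p = 0.568) were not called. Of the regulators of granule protein genes, 3 probes were tested and none was called. ETV6 differed by -1.17 (adjusted p = 0.233) and CEBPA by 0.93 (adjusted p = 0.355). CEBPE, the factor needed for secondary granule proteins, differed by -0.31 (limma adjusted p = 0.286). It was detected on 3 of 3 earlier and 0 of 3 later arrays. That order, also seen for BPI, held for 273 of 6936 detected probes (3.94%). Of the receptors and proteases of cathelicidins, 1 of 4 genes with a probe was detected and none was tested.

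The genes whose scaled level ran most like DEFB7 A_73_P041156 over the 6 arrays, among 800 probes with a symbol detected on all 6, were ASS1 (Pearson r 0.98), LAD1 (0.976), S100A12 (0.948), PRDX5 (0.947) and ASIP (0.946). These values describe 6 arrays that share 2 times and 2 slides. S100A12, which codes for a member of the calgranulin group, was higher after calving by 2.29 by probe A_73_P050466 (limma adjusted p = 0.0277). Its other tested probe, A_73_115208, gave 0.57 and was not called (limma adjusted p = 0.520). As these genes were picked for likeness to DEFB7 across the 2 times, a rise after calving was built into the choice.

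Markers of several cell types differed between the times as well. In whole RNA, fewer cells of a type and less RNA per cell cannot be told apart. The summed scaled signal of the detected neutrophil markers (9 of 11 genes with a probe, S100A8 and ITGAM being undetected) was 16.7 to 30.6 before and 76.2 to 92.7 after calving, with MMP9 and S100A12 A_73_P050466 called higher. That S100A12 probe made up most of the sum, with a mean log2 level of 3.95 before and 6.24 after. CXCR1, a chemokine receptor of neutrophils, gave -1.25 (limma adjusted p = 0.0586), CXCR2 was detected on 3 earlier arrays and 1 later one, and FCGR3A on 2 and 1. ITGB2 gave 1.17 by 1 probe (limma adjusted p = 0.358) and -0.11 and -0.21 by its other tested probes. S100A9 (0.71) and TLR2 (0.47) were detected on 3 later arrays and no earlier one, and neither was called. The summed scaled signal of T cell markers (5 of 8 genes) was 5.34 to 6.90 before and 1.28 to 1.49 after. CD2, CD3D and TRAT1 were undetected throughout, and CD247 (-2.77 and -2.64) and CD3E (-2.03) were called lower by limma. CD4, detected on 3 earlier and 3 later arrays, was not called (-0.11, limma adjusted p = 0.966). Eosinophil markers (1 of 2 genes, ALOX15) went from 1.03 to 1.37 before to 0.139 to 0.153 after (ALOX15 called lower, -3.02), and the monocyte markers (3 of 5 genes) from 3.45 to 4.97 before to 2.78 to 3.04 after (CSF1R called lower, -1.62). B cell markers (3 of 3 genes) were at 0.524 to 1.29 before and 0.451 to 0.864 after. Immature granulocyte markers (5 of 6 genes, BPI and LTF among them) were at 0.349 to 0.385 before and 0.879 to 1.83 after. Of these LTF was higher after calving, while BPI, CEBPE, CHI3L1 and ELANE were detected on fewer later than earlier arrays. CHI3L1 went from 3 arrays to 1 and ELANE from 1 to 0. BPI and CEBPE were detected on 3 of 3 earlier and 0 of 3 later arrays, as were 273 of 6936 probes (3.94%). The reverse held for 21 of the 6936 (0.303%). The summed signal of red cell markers (3 of 4 genes) was 0.318 to 1.24 before and 1.14 to 2.45 after, and the platelet markers PF4 and ITGA2B were undetected. Their part in the differences of DEFB7, CATHL2, CATHL4 and BPI was not tested.

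**Figure D4:**
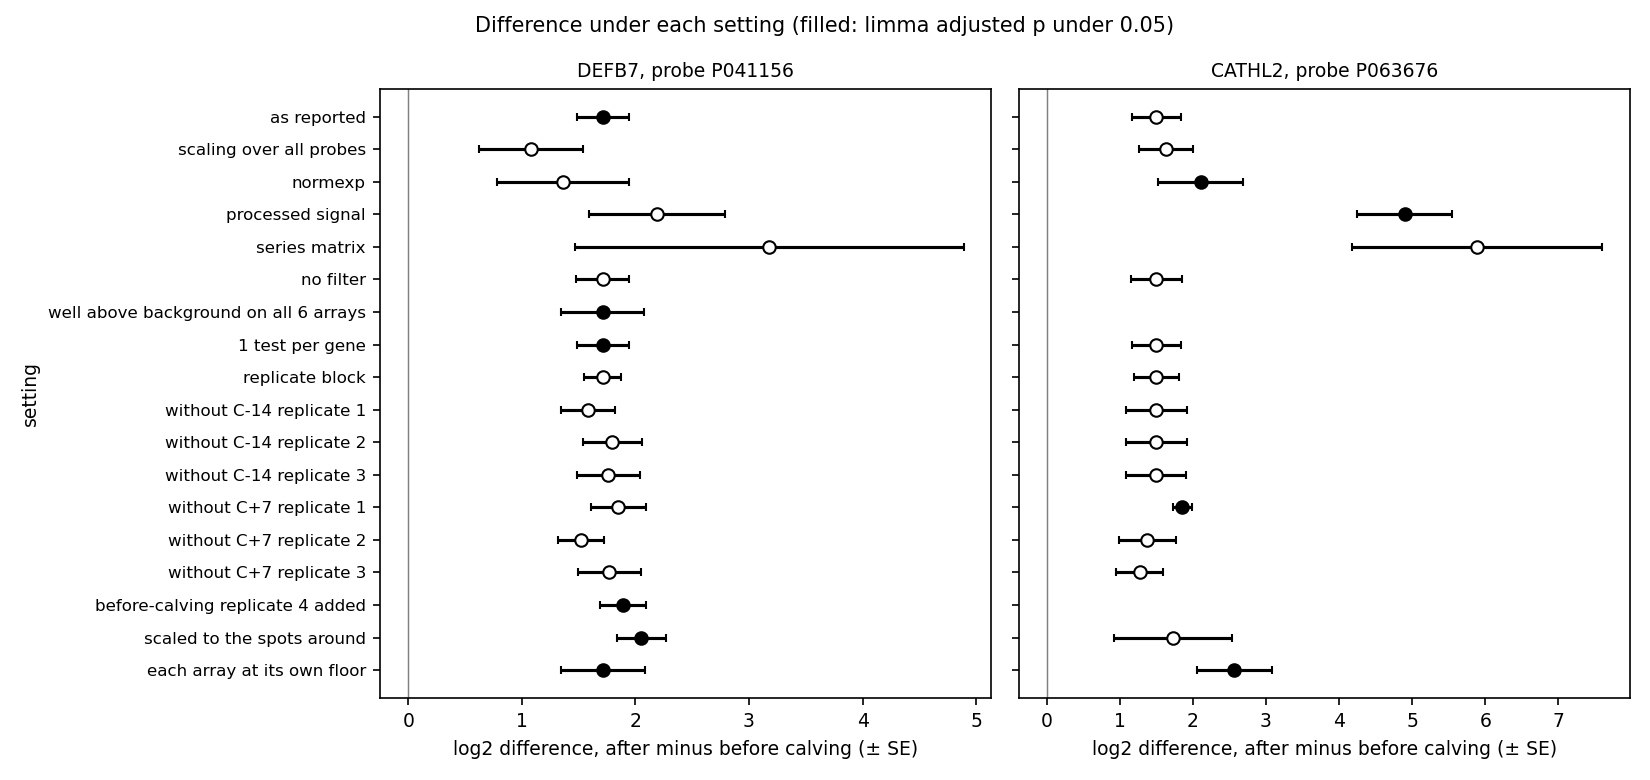
Log2 difference, after minus before calving, with its standard error, for DEFB7 A_73_P041156 and CATHL2 A_73_P063676 on the 6 brighter arrays under each processing setting; filled points have a limma adjusted p under 0.05. Every point of both probes lies above 0, and both the DEFB7 and the CATHL2 panel mix filled and open points.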

How the data were processed

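The data are the scanner output of 8 single-colour arrays. Agilent Feature Extraction 10.10.1.1 made it, per the file headers, while the submitters' processing notes name 9.1; the array annotation is bosTau6. The intensities are within-array values that the authors deposited without scaling between arrays. The deposited series matrix holds log2 values whose differences between arrays correlated with those of the processed signal (lowest r 0.9999); its per-array medians were -0.13, -0.03, -2.61 and 0.03 before and 0.03, 0.03, -0.06 and 0.02 after calving, and its centring stays unknown.

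Outlier and control spots were left out and spots of 1 probe averaged. Array choice, members, lists and tests were chosen with earlier results of these data known. The 8-array fit used log2 processed signal less the 75th percentile over 115 probes well above background on all 8. The 6-array fit used background-subtracted signal (arrays with over 2000 probes well above background), scaled over 1091 probes and raised to a common floor of -3.54 (log2). Probes detected on every array of either time were tested with limma 3.58.1 (R 4.3.3, lmFit and eBayes, Benjamini-Hochberg, adjusted p 0.05). Accessions were named through RefSeq; 26832 probes had a symbol and 16821 had none. Normexp (offset 50) was run on median rather than mean spot signals. All member probes are named; of each list, the called genes and the 2 others with the largest difference; and the 5 genes most like the best-detected member. ELANE, CEBPE, DEFB4A, DEFB10, EBD, CXCR2, FCGR3A, S100A9 and TLR2 were named after their values were seen.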

Additional observations from a re-analysis of the deposited data

Results flagged for a closer look

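Of 28 groups of 4 arrays (14 probes, 2 times), 1 held an array that stood apart by Dixon's test at 95%, where chance gives about 1 group in 20. BPI A_73_113676 on replicate 4 after calving had a scaled log2 processed signal of -4.10, against -6.87 to -6.41 on the other 3 arrays of that time. Its background-subtracted signal there was -2.75, and the processed signal of 4.08 is the lowest that array holds.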

How the results depend on the processing

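On all 8 arrays limma called 1 probe without a filter, 3 without C+7 replicate 4 (0 to 3 over the arrays left out) and 15 with array weights, against 0. On the 6 brighter arrays it called 72 with normexp (68 higher), 12 with the processed signal, 5 with the series matrix, 1 without a filter, 50 when detection on all 6 was asked, 12 with before-calving replicate 4 added and 227 relative to the spots around, against 112; without 1 array it called 7 to 118, with 57 without C-14 replicate 3, 46 without C+7 replicate 1, 9 without C+7 replicate 2 and 7 without C+7 replicate 3. Scaling over all probes called 15 of 114 higher, against 41 of 112. Whether the replicate numbers pair the arrays is not stated. Deviations of same-numbered arrays from their group means correlated at 0.246, -0.25 and 0.277 on the 6 brighter arrays. On all 8 arrays the correlations were 0.58, 0.21, -0.25 and 0.49. Correlations over so few arrays cannot decide whether the arrays are paired. With the replicate numbers as a block 0 probes were called, 454 having an unadjusted p under 0.05, and DEFB7 kept 1.71 (limma adjusted p = 0.115).

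DEFB7 A_73_P041156 lost its call with scaling over all probes (1.08), normexp (1.36), the processed signal (2.19), the series matrix (3.18), no filter (1.71) and on leaving out any array (1.52 to 1.85); the median of all probes was -0.58, 0.68, 0.04, 1.03 and 0 there, and 1.65, 0.68, 2.15, 2.16 and 1.71 remained after subtracting it. CATHL2 A_73_P063676 was called with normexp (2.11), the processed signal (4.90), each array's own floor (2.57) and without C+7 replicate 1 (1.85; 1.27 to 1.85 over the arrays left out). BPI A_73_113676 turned positive with normexp (0.65), the spots around (0.65) and each array's own floor (0.14), where its later values are floors; without 1 array it was -0.03 to -0.02. BPI without C-14 replicate 2 and CATHL2 with the added array stood at the floor throughout and gave no value. Where no value shows it, the cause was not tested. Of the 14 probes, 9 lay where few spots were detected on most arrays.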
